A study of Caenorhabditis elegans with 3 samples.

Results

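The lysozyme lys gene family of the nematode Caenorhabditis elegans was described as a possible set of targets of PQM-1, a zinc-finger transcription factor. The members were the 10 genes named lys-1 to lys-10, taken by name, out of 19973 protein-coding genes on the nuclear chromosomes. Binding was measured by ChIP-seq in whole animals of the first larval stage (L1), both sexes together and of unknown age, and the data are lists of peaks. All samples belonged to 1 group, the transgenic strain OP201, genotype unc-119(tm4063) III with wgIs201, whose PQM-1 is fused at its C-terminus to a GFP-FLAG tag. The group had 3 biological replicates and no second condition, and the tissue in which PQM-1 was bound cannot be read from whole animals.

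Lysozymes cut the peptidoglycan of bacterial cell walls. In C. elegans the lys genes encode lysozymes related to those of protists, and several are known as intestinal genes for digesting or resisting bacteria. PQM-1 is known for its interplay with DAF-16, the FOXO factor of insulin signalling, and is linked to the word TGATAAG, the DAF-16-associated element. The genes lys-7 and lys-8 are known from earlier work in this species as genes that DAF-16 activates.

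A peak was given to a gene when its summit lay in the gene body or within 2000 bp upstream of the annotated 5' end. Peaks were ranked within each list by the signal of the authors' caller, rank 1 being the strongest. Each of the 3 replicate lists and the list from pooled reads held 30000 peaks, background included, and the list kept by the irreproducible discovery rate (IDR) held the strongest of the pooled peaks, down to a signal of 34.6. As many peaks from the top of each replicate list are called its top set here. Reads per replicate are unknown, so no rank has a counting interval, and the lists end at a fixed number of peaks rather than at a fixed signal. A peak of low rank was common: 75.3% of all protein-coding genes had at least 1 peak in the pooled list.

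The highest-ranked peaks of the family lay at lys-8 and, with wide spread between replicates, at lys-2 and lys-1. An IDR peak lay at 2 of the 10 lys genes, lys-2 and lys-8, against 3.45% of all protein-coding genes. A peak in the top set of each replicate lay at 1 member, lys-8, against 0.566% of all genes. Without replicate 3 this count was 2, with lys-2 added, beside 1.62% of all genes. Some peak in the pooled list lay at 7 members, against 75.3% of all genes, and some peak in all 3 replicate lists lay at 4 members, against 48.8%. The last 2 counts lie under the share over all genes with this window, and each lay above it with some other settings but not with all. At an upstream reach of 5000 bp, a pooled peak lay at 8 members, against 89.2% of all genes. Leaving out replicate 1 or 2, a peak in both remaining lists lay at 5 members, against 59.0% and 58.6% of all genes. Leaving out replicate 3, such a peak lay at 6 members, against 59.5%. With an upstream reach of 1000 bp, a pooled peak lay at 7 members, against 66.5% of all genes. The lys genes were short, with a median of 1168.5 bp against 2027 bp for all genes, and whether length bears on these counts was not tested. With upstream sequence alone, equal in length for every gene, a pooled peak lay at 6 members, against 51.3% of all genes, and a peak in all 3 replicate lists at 3 members, against 17.4%. With the 10000 highest-signal peaks of each replicate, a peak in all 3 lists lay at 3 members, against 12.1%.

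**Figure D1:**
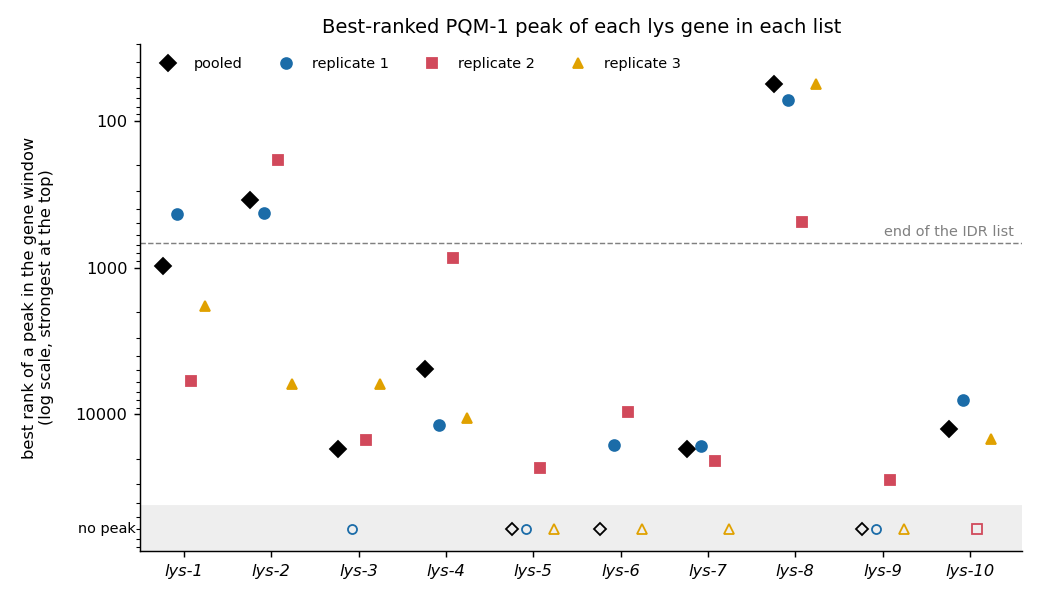
Best rank of any peak in the window of each lys gene, on a log axis with the strongest peaks at the top, in the pooled list (diamonds) and in replicates 1, 2 and 3 (circles, squares and triangles). Open symbols in the grey band mark lists with no peak. All 4 symbols lie above the end of the IDR list, the dashed line, at lys-8, and at lys-2 all but that of replicate 3 do.

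Most members had no high-ranked peak. The best pooled ranks of the 7 members with a pooled peak ran from 56 at lys-8 to 17323 at lys-3. With genes lacking a pooled peak counted as past the end of the list, the median best rank was 14903.5 for the 10 lys genes and 14221 for all protein-coding genes, close to each other. For lys-8, 57 genes (0.285%), itself included, had a pooled peak ranked as high or higher. For lys-2 there were 340 (1.70%), for lys-1 972 (4.87%) and for lys-4 4465 (22.4%). For lys-10 the share of genes ranked as high or higher was 45.9%, and for lys-7 and lys-3 it was 56.7%.

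**Figure D2:**
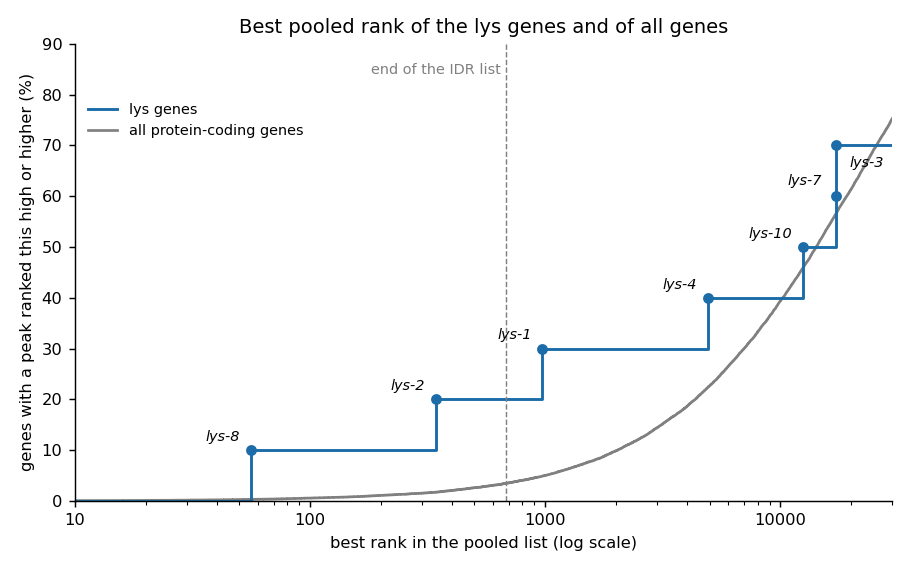
Cumulative share of genes whose best peak in the pooled list had the rank on the x axis or a higher one, for the 10 lys genes (blue steps, points named) and for all 19973 protein-coding genes (grey), with rank on a log axis. The blue line lies above the grey one from lys-8, at rank 56, to lys-4, at rank 4923, crosses it several times beyond that, and ends with 7 of 10 genes where the grey one ends at 75.3%.

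The gene lys-8 (chromosome II, 5586178 to 5587651, plus strand) had the highest-ranked peak of the family. The pooled summit lay 149 bp upstream of the 5' end, at position 5586029, and the peak ranked 56 with a signal of 68.8. At this site the peak ranked 72, 492 and 56 in replicates 1, 2 and 3, a mean rank of 206.7 ± 247.2 (SD, n = 3), so replicate 2 was lower than the others and all 3 values stayed inside the top sets. The signals there were 34.6, 13.1 and 17.9, on scales that differ between lists. The replicate summits lay 143, 191 and 161 bp upstream, within 42 bp of the pooled one. No other protein-coding gene had this summit in its own window. The nearest one upstream, T25E4.2, is on the minus strand, with its 5' end facing lys-8 across a gap of 3768 bp. With a 5000-bp reach the summit would also lie upstream of T25E4.2. A short non-coding RNA gene on the other strand, C17G10.12 (5585978 to 5586124), is annotated over the summit, so the peak cannot be assigned to lys-8 alone. Weaker peaks lay inside lys-8. A peak in the first part of the gene had pooled rank 17663, in an intron. In replicate 1 it ranked 3989, with the summit 392 bp past the 5' end. The replicate 2 peak there ranked 3680, with its summit 605 bp past the 5' end, in a coding exon. It covered 42.1% of the pooled one. A peak near the 3' end had pooled rank 22876.

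The 250 bases before the 5' end of lys-8 (ce11, chrII:5585928-5586177, plus strand, from RefSeq's copy of the WBcel235 assembly) are shown because they hold the strongest site of the family. Capitals mark every TGATAA, the GATA word that forms most of TGATAAG, on either strand.
lys-8: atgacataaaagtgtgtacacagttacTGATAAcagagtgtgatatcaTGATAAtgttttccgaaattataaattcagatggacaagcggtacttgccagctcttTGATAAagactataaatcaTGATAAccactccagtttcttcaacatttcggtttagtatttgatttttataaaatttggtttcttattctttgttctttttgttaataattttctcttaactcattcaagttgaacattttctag
The sequence holds 4 copies of TGATAA, all on the strand of the gene and in 2 pairs, with starts 21 bp apart in the outer pair, 57 bp between the pairs and 19 bp apart in the inner pair. None is followed by G, so TGATAAG is absent. At least 4 copies in this stretch occurred in 35 of 19973 protein-coding genes (0.175%), and 13 of those 35 (37.1%) had an IDR peak in the window. The summit of replicate 1 lay on the word of the inner pair that is farther from the gene, the summit of replicate 2 lay 8 bp from the nearest word, in the outer pair, and that of replicate 3 lay 18 bp from one in the inner pair.

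Genes with nearly the same ranks as lys-8 were looked for among 9739 others with a peak in all 3 replicate lists. The closest by the largest difference in log10 rank over the 3 lists were fat-3 and fat-4, neighbouring fatty acid desaturase genes that share a peak ranked 117, 426 and 66 in replicates 1, 2 and 3 (difference 0.21). Next were Y67D8A.2, at 33, 228 and 93 (0.34), T24C12.3, at 145, 1097 and 75 (0.35), and clec-170, a C-type lectin gene, at 38, 683 and 130 (0.37). This is likeness over 3 lists only. The genes were picked by these same ranks, so their shared lower place in replicate 2 follows from the choice.

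The genes lys-1, lys-2 and lys-3 form a cluster on chromosome V, with lys-1 on the plus strand (10277904 to 10279056) and lys-2 (10280307 to 10281474) and lys-3 (10282100 to 10283544) on the minus strand. The 3' ends of lys-1 and lys-2 face each other across 1250 bp, and lys-3 lies 625 bp upstream of lys-2. Over the whole cluster with its flanks the pooled list had 6 peaks, and replicates 1, 2 and 3 had 5, 6 and 4.

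The strongest site of the cluster lay 157 bp upstream of lys-2, in the gap between lys-3 and lys-2. The pooled peak ranked 344 with a signal of 42.8, just under the median signal of the IDR list, 43.0. The same site ranked 426, 185 and 26526 in replicates 1, 2 and 3, so replicates 1 and 2 placed it in their top sets and replicate 3 near the end of its list. The summits of replicates 1, 2 and 3 lay 155, 119 and 81 bp upstream. The best peak of replicate 3 in the lys-2 window was another one, ranked 6218, whose summit lay 1624 bp upstream of lys-2 and inside a coding exon of lys-3. With that peak counted, the mean best rank of lys-2 was 2276.3 ± 3415.7 (SD, n = 3). With the upstream reach cut to 1000 bp it was 9045.7.

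A second site of the cluster lay 136 bp upstream of lys-1. The pooled peak ranked 973 with a signal of 30.6, past the end of the IDR list. The best lys-1 peaks ranked 434, 5907 and 1820 in replicates 1, 2 and 3, a mean of 2720.3 ± 2845.4 (SD, n = 3), so that replicate 1 alone had it in its top set. Their summits were spread out, 111 and 58 bp upstream in replicates 1 and 2 and 96 bp inside the gene, in a coding exon, in replicate 3. The replicate 3 peak covered 11.4% of the pooled one. A weaker lys-1 peak in an intron, of pooled rank 13052, ranked 7802 in replicate 2.

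The sites next to lys-2 (ce11, chrV:10281581-10281681, minus strand) and lys-1 (ce11, chrV:10277718-10277818, plus strand) are given as 101 bases around the pooled summit, read along the gene. Capitals mark TGATAA and TGATAAG on either strand, which read TTATCA and CTTATCA on the opposite one.
lys-2: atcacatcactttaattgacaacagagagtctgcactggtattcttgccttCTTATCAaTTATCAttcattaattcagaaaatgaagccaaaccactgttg
lys-1: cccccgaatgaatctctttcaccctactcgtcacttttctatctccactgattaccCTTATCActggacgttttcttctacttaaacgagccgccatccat
Both sites hold TGATAAG once, on the strand opposite to the gene. Its centre lay 4 bp from the pooled summit at lys-2 and 9 bp at lys-1. At lys-2 another TGATAA follows after a single base. The replicate 3 summits lay 64 bp from the nearest TGATAA at lys-2 and 222 bp at lys-1, in each case farther than the summits of replicates 1 and 2 at the same gene.

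A further site of the cluster lay at the 3' end of lys-2 rather than at a 5' end. Its pooled summit was 15 bp past that end, outside the windows of all 3 genes, and ranked 2423. Replicates 1 and 2 ranked it 1532 and 1289, with summits in the 3' UTR, 6 and 11 bp inside that end, and replicate 3 had no peak there. TGATAA occurred 2 times within 50 bp of each of these summits. At lys-3 no peak was ranked high. Its best pooled peak ranked 17323, inside the gene, 441 bp from the 5' end. Its best ranks were 14998 in replicate 2 and 6218 in replicate 3, both inside the gene, and replicate 1 had none. Upstream of lys-3 no list had a peak within 2000 bp.

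**Figure D3:**
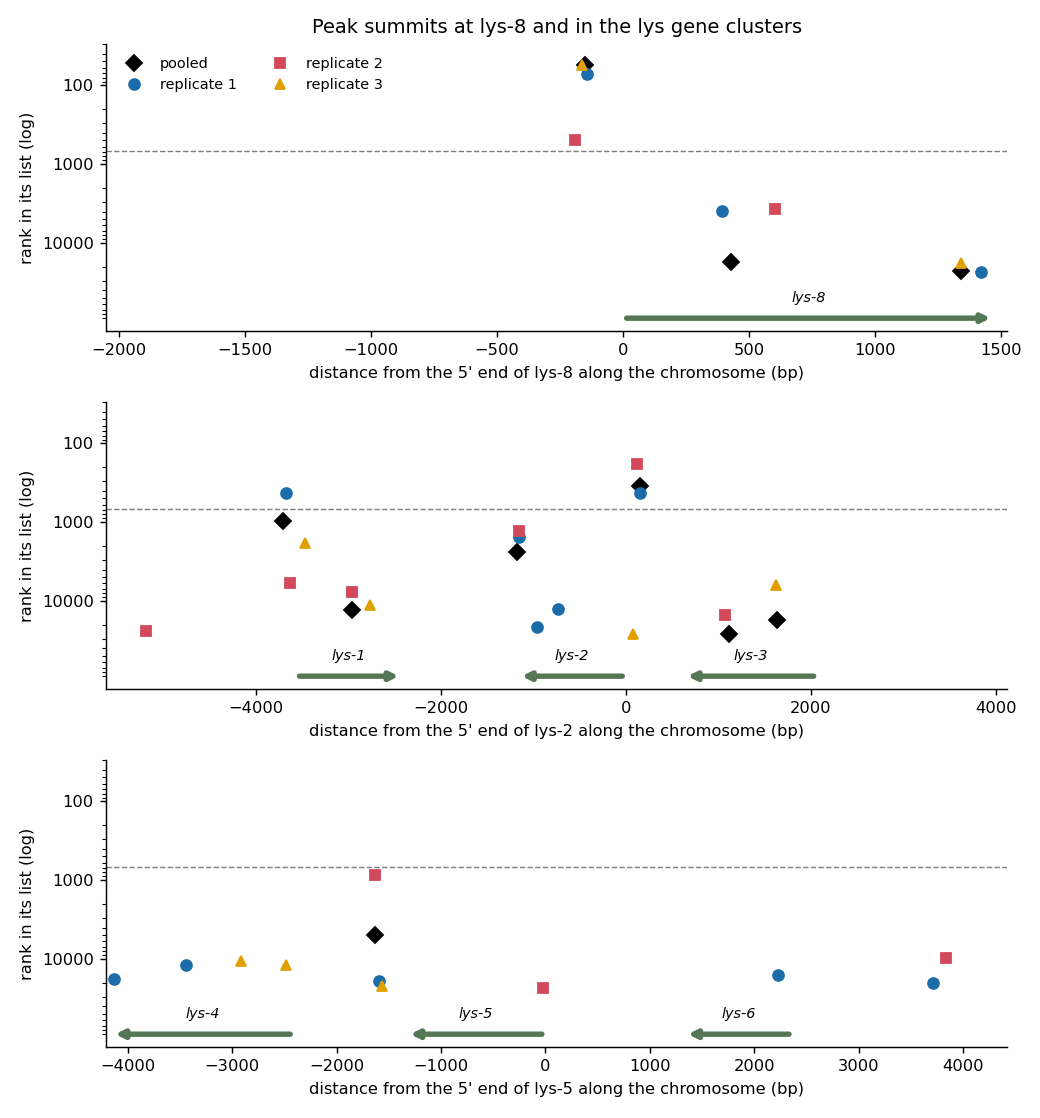
Rank of every peak (log axis, strongest at the top) against the position of its summit, as distance along the chromosome from the 5' end of lys-8 (top), lys-2 (middle) and lys-5 (bottom). Arrows are gene bodies pointing to the 3' end, and the dashed line is the end of the IDR list. Symbols of all 4 lists meet upstream of lys-8, those of replicates 1 and 2 meet upstream of lys-2, and in the lys-4 cluster the highest symbol is that of replicate 2 at rank 862.

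The genes lys-4, lys-5 and lys-6 form a cluster on chromosome IV, all on the minus strand (11621429 to 11623174, 11624252 to 11625582 and 11626910 to 11627947). The pooled list had 1 peak in the cluster, against 6 in the cluster of lys-1. It lay 776 bp upstream of lys-4, in the 1077-bp gap between lys-5 and lys-4, and ranked 4923. The site ranked 18864, 862 and 21926 in replicates 1, 2 and 3, and replicate 2 alone placed it higher than the pooled list did. What set its pooled rank was not tested. The best lys-4 peaks of replicates 1 and 3, ranked 11816 and 10604, lay at other positions, in introns of the gene that also lie upstream of the neighbouring gene dsl-5. Of the 4 members with a peak in all 3 replicates, lys-4 and lys-8 were the pair whose ranges of best ranks did not overlap, 862 to 11816 for lys-4 and 56 to 492 for lys-8. The ranges of all other pairs, such as lys-8 with lys-2 (185 to 6218) and lys-1 (434 to 5907), overlapped. Within replicates, by best rank, lys-8 ranked above lys-1, and lys-2 above lys-4, in all 3. In replicate 3 the lys-2 value, 6218, was that of the peak inside lys-3. The site next to lys-2 ranked 26526 there, lower than the best lys-4 peak and the lys-4 site. Against lys-2, lys-8 ranked higher in replicates 1 and 3 and lower in replicate 2.

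The lys-4 site (ce11, chrIV:11623900-11624000, minus strand) is shown as a site with no whole TGATAA within 50 bp of its pooled summit.
lys-4: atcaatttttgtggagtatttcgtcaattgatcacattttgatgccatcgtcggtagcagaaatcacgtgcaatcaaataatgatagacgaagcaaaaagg
No capital occurs in it, and it also lacks the shorter GATAA.

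Neither lys-5 nor lys-6 had a pooled peak. For lys-5 the single peak was one of replicate 2, ranked 23253, in a coding exon 27 bp from the 5' end. For lys-6 replicate 1 had a peak ranked 16090 in a coding exon and one ranked 20228 upstream. Replicate 2 had a peak ranked 9618, 1469 bp upstream, in a coding exon of the next gene, F58B3.4. Replicate 3 had no peak in the window of lys-5 or lys-6.

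The genes lys-7 and lys-10 lie away from the other members and had low ranks. The gene lys-7 (chromosome V, 3481432 to 3482600, minus strand) had its best pooled peak 209 bp upstream, at rank 17317. Replicate 1 had it at rank 16386, 228 bp upstream, replicate 2 had a peak in another place, ranked 20889 and inside srbc-33, a chemoreceptor-family gene, and replicate 3 had none. The gene lys-10 (chromosome IV, 8332826 to 8333518, plus strand) lies among histone genes, and its pooled peak, 365 bp upstream, ranked 12490. It ranked 7985 in replicate 1 and 14693 in replicate 3, and replicate 2 had no peak there. The summit also lay upstream of the histone genes his-29 (by 1049 bp) and his-32 (by 1844 bp), so the gene it belongs to is not resolved.

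The sequences around TGATAAG next to lys-7 (ce11, chrV:3482734-3482834, minus strand), lys-10 (ce11, chrIV:8332591-8332691, plus strand) and lys-6 (ce11, chrIV:11628125-11628225, minus strand) are shown because these genes carry the word without a high-ranked peak. Each is 101 bases centred on the word and read along the gene, with TGATAA and TGATAAG in capitals.
lys-7: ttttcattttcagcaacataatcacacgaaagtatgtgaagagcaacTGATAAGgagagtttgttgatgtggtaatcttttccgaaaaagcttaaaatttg
lys-10: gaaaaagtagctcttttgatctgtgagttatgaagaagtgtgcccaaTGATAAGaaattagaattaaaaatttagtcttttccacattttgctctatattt
lys-6: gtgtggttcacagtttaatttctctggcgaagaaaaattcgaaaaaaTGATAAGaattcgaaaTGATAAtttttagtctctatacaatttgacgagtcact
The word lay 184, 185 and 228 bp upstream of lys-7, lys-10 and lys-6. The pooled peak over the word ranked 17317 at lys-7, and no pooled peak covered it at lys-10 or lys-6. At lys-10 the replicate 1 peak, ranked 7985, reached over the word, with its summit 112 bp away. At lys-6 the second copy of TGATAA also had no high-ranked peak, and the nearest summit to TGATAAG, one of replicate 1, was 371 bp away.

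Words of the GATA type were common next to the 5' ends of the lys genes, at members with high and with low ranks. TGATAAG lay within 250 bp upstream of 6 of the 10, lys-1, lys-2, lys-6, lys-7, lys-9 and lys-10, against 8.20% of all protein-coding genes. TGATAA lay there in 9 members, all but lys-4, against 26.8% of all genes, and GATAA in all 10, against 52.2% of all genes. The words were searched on both strands, and TGATAAG holds TGATAA, which holds GATAA. Over 2000 bp upstream TGATAAG again lay at 6 members, against 33.3% of genes. Of the 6 members with TGATAAG near the 5' end, 1 had an IDR peak, lys-2. Over all genes 8.86% of the 1637 with the word there had an IDR peak in the window, and 2.97% of those without it. TGTTTAC, the DAF-16 binding element, lay within 250 bp upstream of lys-7 alone, at 94 bp, against 4.36% of all genes. The reversed word GAATAGT lay there in none of the 10, against 3.26% of all genes. Genes of a cluster are neighbours and can share peaks, so the members are not independent.

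**Figure D4:**
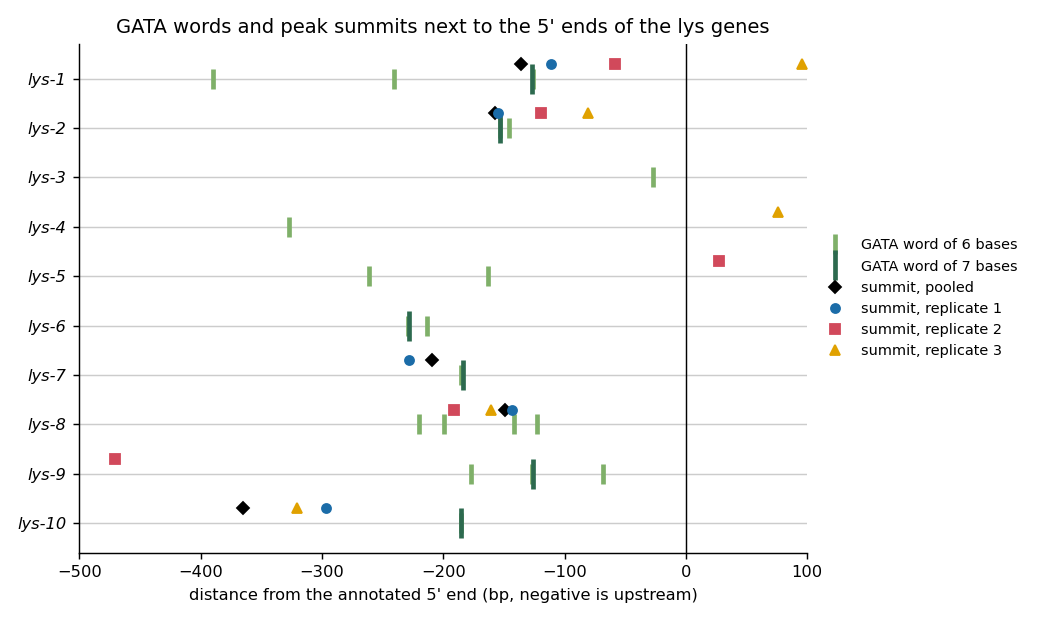
Position of TGATAA (short ticks, 6 bases) and TGATAAG (tall ticks, 7 bases) and of peak summits (symbols above each line, of any rank) relative to the annotated 5' end of each lys gene, in bp. Summits sit beside words at lys-1, lys-2, lys-7 and lys-8, and no summit lies within 250 bp upstream at lys-6, lys-9 or lys-10, which carry the tall tick.

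Of the 12 different pooled peaks of the family, 4 had TGATAAG within 50 bp of the summit, at ranks 344, 973, 13052 and 17317. Among all 30000 pooled peaks 4.93% had it, and among the IDR peaks 38.1%. TGATAA was at 7 of the 12, against 13.4% of all pooled peaks and 62.0% of IDR peaks. TGTTTAC was at none of the 12, against 1.22% of all pooled peaks.

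The gene lys-9 (chromosome I, 12454853 to 12455826, minus strand) had the least. Its single peak in any list was in replicate 2, ranked 27903, 471 bp upstream, and it also lay 629 bp upstream of C54C8.12. TGATAAG lay 126 bp upstream of lys-9, with TGATAA also 68 and 177 bp upstream, and no peak of any list covered the word.

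Other defence genes were set beside the lys family, namely invertebrate-type lysozymes (ilys), saposin-like proteins (spp), antibacterial factors (abf), caenacins (cnc) and thaumatin-family genes (thn). Of these 51 genes 5 had an IDR peak (9.80%), against 3.45% of all protein-coding genes. All 5 were among the 23 spp genes, and none of the 6 ilys genes had one. The highest-ranked was that of spp-17, at 21 in the pooled list and 13, 111 and 119 in replicates 1, 2 and 3. The peak of spp-1 ranked 380, and spp-2, spp-3 and spp-6 had the same peak in their windows, at rank 421. With an upstream reach of 1000 bp 4 of the 51 had one, against 2.81% of all genes, and with a reach of 5000 bp 7 did, against 5.40%. With the 341 highest-signal IDR peaks 1 did, against 1.69%, and lys-8 alone of the lys genes did.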

How the data were processed

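The authors deposited ChIP-seq peak lists on ce11 and ce10 for 3 biological replicates, pooled reads and IDR, and the ce11 lists were used. Per the README deposited by the authors, the lists derive from the alignments and 1 further file, which also went into their control-normalized tracks and was not analysed here. No caller, aligner or IDR threshold is given in the sources used here. The authors' signal per peak, in column 7 of the lists they deposited, is the value from which ranks were taken inside each list, ties sharing the higher rank. Column 10 gives the summit and holds other whole numbers in bp.

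Positions are 1-based on ce11, with genes from Ensembl release 115 (WBcel235, the same assembly) and sequence from the RefSeq copy of WBcel235. Each lys gene has 1 annotated transcript. Of 52 other defence gene names 51 had an entry, all but thn-3.

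There was 1 group, so no test was run, and counts stand beside the share of all protein-coding genes under the same rule. The members, lists, words and rules were chosen with earlier results of these data known. Named genes were all members, other protein-coding genes with the summit of a member's IDR peak in their window (none), the 4 defence genes with the highest-ranked IDR peak, with ties, and the 5 genes most like the top member in rank. Other genes were named only as neighbours or overlapping genes of a member's peak, after the values were seen. The alternatives were other reaches, thresholds, overlap rules and word windows, and leaving out each replicate. Assignment and word search were tested on simulated data. Python 3.11.15, numpy 2.4.6, pandas 2.3.3 and matplotlib 3.10.9 were used.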

Additional observations from a re-analysis of the deposited data

How the results depend on the processing

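No paired analysis was possible because all samples formed 1 group. Of 36 counts under alternatives, 28 stayed within 1.5 times the reported one and 8 did not. With a 5000-bp reach, 8 members rather than 4 had a peak in all 3 replicate lists, beside 72.8% of all genes. In the 341 highest-signal IDR peaks 1 lys gene and 1 other defence gene had a peak, beside 1.69% of all genes, since lys-2 ranked 344. Among the 10000 highest-signal pooled peaks 4 members had one, beside 39.3%. With top sets of 341, a peak in that of every replicate lay at 0 members, beside 0.290% of all genes, since lys-8 ranked 492 in replicate 2. Leaving out single replicates gave 1 to 2 members for the top sets, the 2 without replicate 3, and 5 to 6 for all lists, beside 58.6% to 59.5% of all genes. With TGATAA or GATAA in place of TGATAAG, 7 or 8 of the 12 pooled peaks held the word. Of 50 single values 2 moved by more than the SD over replicates. They were the mean best rank of lys-2 with a 1000-bp reach (9045.7) and that of lys-4 with upstream sequence alone (13884). Values without such an SD were held to a limit of 1 instead. The 50 include summit distances from the nearest transcript, which could not move because each lys gene has 1 transcript. They also include mean ranks with 1 replicate left out, which could not move either. Leaving out 1 of 3 ranks cannot shift their mean by as much as the SD of the same 3. Depth is unknown, and the fixed list length limits what an absent peak shows.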
